A study of Mus musculus with 10 samples.

Results

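The 9 erythroid genes Hba-a1, Hba-a2, Hbb-bs, Hbb-bt, Slc4a1, Alas2, Gata1, Klf1 and Epor were followed through 10 mouse RNA-seq libraries. They were taken by name from a table of read counts that lists 46959 genes, and each of the 9 had 1 row. The group holds the adult alpha and beta globins, a membrane protein, a heme enzyme, a pair of transcription factors and a receptor. It was chosen by name and not by a cut on measured values, though earlier results of these data were known.

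Red blood cells arise in bone marrow from progenitors that need the hormone erythropoietin, which acts through the receptor encoded by Epor. The transcription factors GATA1 and KLF1 switch on the genes of the mature red cell. Alas2 encodes the erythroid form of the enzyme that starts heme synthesis, Slc4a1 encodes the anion exchanger band 3 of the red cell membrane, and alpha and beta globin chains join with heme to form hemoglobin.

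The study measured RNA of femoral and splenic B cell preparations in relation to transcription of the immunoglobulin heavy chain locus and to inhibitors of histone deacetylases (HDAC). The femoral libraries came from cells recovered from the femur and extracted directly, each library a pool of 3 mice. There were 2 control pools from mice deficient for RAG2 and gamma c, 1 pool of KOKI mice deficient for RAG2 and gamma c, and 1 pool of KOKI mice deficient for RAG2 alone. All 4 femoral pools therefore lacked RAG2, a protein needed to assemble antigen receptor genes, and only the last kept gamma c, a chain shared by several cytokine receptors. The splenic libraries came from CD43-negative splenocytes cultured for 2 days with 5 µg/ml LPS, a bacterial product that activates B cells. They comprised 2 cultures of wild-type (WT) cells given LPS alone, 2 of WT cells given LPS plus 200 ng/ml of the HDAC inhibitor SAHA, and 2 of KOKI cells. KOKI is not spelled out in the labels. For the splenic KOKI cultures the titles name LPS and the treatment field names LPS and SAHA, so these cultures were set against both WT groups. Apart from the numbers in the titles nothing states that splenic replicates came from separate animals, so the p-values measure the spread between these libraries, which may be technical.

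Total counts ran from 18614742 to 29314068 per library. Levels are given as CPM, the reads of a gene relative to the library total after TMM scaling, and RPKM is the same value per kilobase of exon. The femoral preparations carried few transcripts of mature B cells: the summed level of 8 mature B cell markers was 166 to 217 CPM in the femur and 5516 to 6121 CPM in the spleen, and Ms4a1, which encodes CD20, lay at 0 to 0.09 CPM in the femoral pools. Summed levels in the femoral pools were 8630 to 12069.8 CPM for the 9 erythroid genes, 12433 to 21110.0 CPM for 12 neutrophil markers, 3857 to 5741 CPM for 11 macrophage and monocyte markers and 1815 to 2438 CPM for 11 eosinophil, mast cell and basophil markers. Markers of early B cells, the stage at which cells without RAG2 stop, were mixed. Their summed level over 8 genes was 191 to 275 CPM in the femur and 134 to 223 CPM in the spleen. By edgeR 5 of the 7 tested were higher in the femur and 1 lower, and 26.3% of all genes were called higher. Only 2 of the 8, Cd93 and Ebf1, had enough counts to be tested among the splenic cultures alone. The count of 5 of 7 therefore carries no weight of its own. Dntt, the enzyme that adds bases at receptor gene joints, averaged 45.9 CPM in the femur, and Cd93, which other marrow cells also make, 180 CPM. Vpreb1 and Igll1, the surrogate light chain genes, averaged 0.36 and 0.50 CPM, and Ebf1, an early B cell transcription factor, 2.31 CPM against 120 CPM in the spleen. The defining markers of mature B cells were thus low in these 4 pools. Cells without RAG2 stop before that stage, so these markers cannot decide on the label of B cells. Of the early B cell markers named above, Dntt and Cd93 were present, while Vpreb1, Igll1 and Ebf1 averaged 2.31 CPM or less. The part of early B cells in these pools was not tested. In bulk RNA of this kind, fewer cells of a type and less RNA per cell cannot be told apart.

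Promoter sequences are shown because these genes are textbook targets of the same factors and because they differ in the motifs near their starts. RefSeq sequences of build GRCm38.p6 were matched by symbol for 8 of the 9 genes. Promoter sequence of Slc4a1 was not analysed here. Each run below is read 5′ to 3′ on the gene's own strand and ends at the base before the RefSeq start, which for all of these genes but Epor lies inside the gene span of the deposited table. Capitals mark matches on either strand to 4 motifs. GATAA is the core that GATA factors bind. CACCC is a motif that KLF factors bind. The other two are the box CCAAT and, as a form of the TATA box, ATATAA. The 220 bases shown for 3 globin genes lie at chr11:32296272-32296491 (Hba-a2, plus strand), chr7:103827929-103828148 (Hbb-bs, minus strand) and chr7:103813924-103814143 (Hbb-bt, minus strand).
Hba-a2: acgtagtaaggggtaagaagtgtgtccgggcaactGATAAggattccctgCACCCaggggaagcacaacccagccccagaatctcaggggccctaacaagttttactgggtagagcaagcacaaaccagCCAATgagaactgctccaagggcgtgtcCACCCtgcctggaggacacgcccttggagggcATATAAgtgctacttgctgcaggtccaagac
Hbb-bs: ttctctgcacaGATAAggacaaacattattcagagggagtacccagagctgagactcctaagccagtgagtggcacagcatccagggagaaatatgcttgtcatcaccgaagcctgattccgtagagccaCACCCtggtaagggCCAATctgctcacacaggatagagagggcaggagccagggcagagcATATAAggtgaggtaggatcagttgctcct
Hbb-bt: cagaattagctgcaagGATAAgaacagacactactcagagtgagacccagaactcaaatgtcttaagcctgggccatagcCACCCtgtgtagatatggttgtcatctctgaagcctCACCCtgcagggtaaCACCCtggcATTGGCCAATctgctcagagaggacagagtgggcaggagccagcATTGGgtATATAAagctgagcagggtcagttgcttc
The 130 bases shown for the 4 other genes lie at chrX:150547287-150547416 (Alas2, plus strand), chr8:84901852-84901981 (Klf1, plus strand), chrX:7967911-7968040 (Gata1, minus strand) and chr9:21963577-21963706 (Epor, minus strand).
Alas2: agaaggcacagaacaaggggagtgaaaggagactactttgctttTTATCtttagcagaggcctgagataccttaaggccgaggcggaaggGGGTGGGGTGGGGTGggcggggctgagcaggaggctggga
Klf1: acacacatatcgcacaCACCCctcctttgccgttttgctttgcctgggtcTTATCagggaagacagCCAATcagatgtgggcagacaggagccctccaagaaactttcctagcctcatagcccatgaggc
Gata1: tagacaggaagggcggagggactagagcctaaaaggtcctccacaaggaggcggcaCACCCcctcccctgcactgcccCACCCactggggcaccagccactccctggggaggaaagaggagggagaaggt
Epor: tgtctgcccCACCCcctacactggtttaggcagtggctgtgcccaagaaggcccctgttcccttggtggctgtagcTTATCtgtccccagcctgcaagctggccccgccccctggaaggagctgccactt

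Motifs were searched on both strands over the 250 bases before each start. ATATAA occurred in the 4 globin promoters and in none of the other 4 searched, and in 9.1% of the 32851 RefSeq promoter windows of that length. GATAA occurred in 7 of the 8 promoters, Gata1 being the one without a match, and in 22.6% of all windows. CACCC occurred in all 8 and in 52% of all windows, and CCAAT in 5 and in 33.8%. The longer motif CCNCNCCC, which can overlap CACCC, occurred in 5 and in 45.9%. The windows in which GATAA stood together with both the KLF motif and the CCAAT box were 5 of the 8, those of the 4 globins and Klf1, and 3.45% of all windows. A match is a run of letters and was not tested for binding. The promoters of Hba-a1 and Hba-a2 were identical over 247 bases at an offset of 3 bases, so the alpha globin pair shared every motif, while Hbb-bs and Hbb-bt had 70.9% identical positions.

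The paired globin genes also resemble each other in their transcripts, which limits how well counts can be assigned between them. Among all stretches of 50 bases in the GENCODE M21 transcripts, 67.5% of those of Hba-a1 and 86.9% of those of Hba-a2 occurred in the partner as well. The shares were 65.8% for Hbb-bs and 58.3% for Hbb-bt. How reads that match both partners were counted is not given in the sources used here, so the split within each pair is uncertain and sums over each pair are given beside the single genes in the comparisons of KOKI and SAHA. Hba-a1 lies at chr11:32283511-32284465 and Hba-a2 at chr11:32296489-32297298, both on the plus strand. Hbb-bs lies at chr7:103826534-103828096 and Hbb-bt at chr7:103812524-103813996, both on the minus strand of mm10.

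All 9 genes had counts in every femoral pool, and the globins led the order of levels. Per length, Hba-a1 was highest at 4706 ± 763 RPKM (SD, n = 4), followed by Hbb-bs at 3735 ± 971 RPKM, Hbb-bt at 1470.0 ± 390.5 RPKM and Hba-a2 at 1376 ± 611 RPKM. The non-globin genes followed with Slc4a1 at 87.6 ± 31.3 RPKM, Alas2 at 59.2 ± 16.8 RPKM, Klf1 at 33.4 ± 9.79 RPKM, Gata1 at 14.3 ± 4.63 RPKM and Epor at 9.22 ± 1.19 RPKM. The ranges of neighbours over the 4 pools overlapped for Hba-a1 and Hbb-bs, for Hbb-bt and Hba-a2, for Slc4a1 and Alas2, and for Alas2 and Klf1, and the other neighbours had separate ranges. The globins as a class stood well above the 5 other genes, the lowest globin value in any femoral pool being 801 RPKM for Hba-a2.

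**Figure D1:**
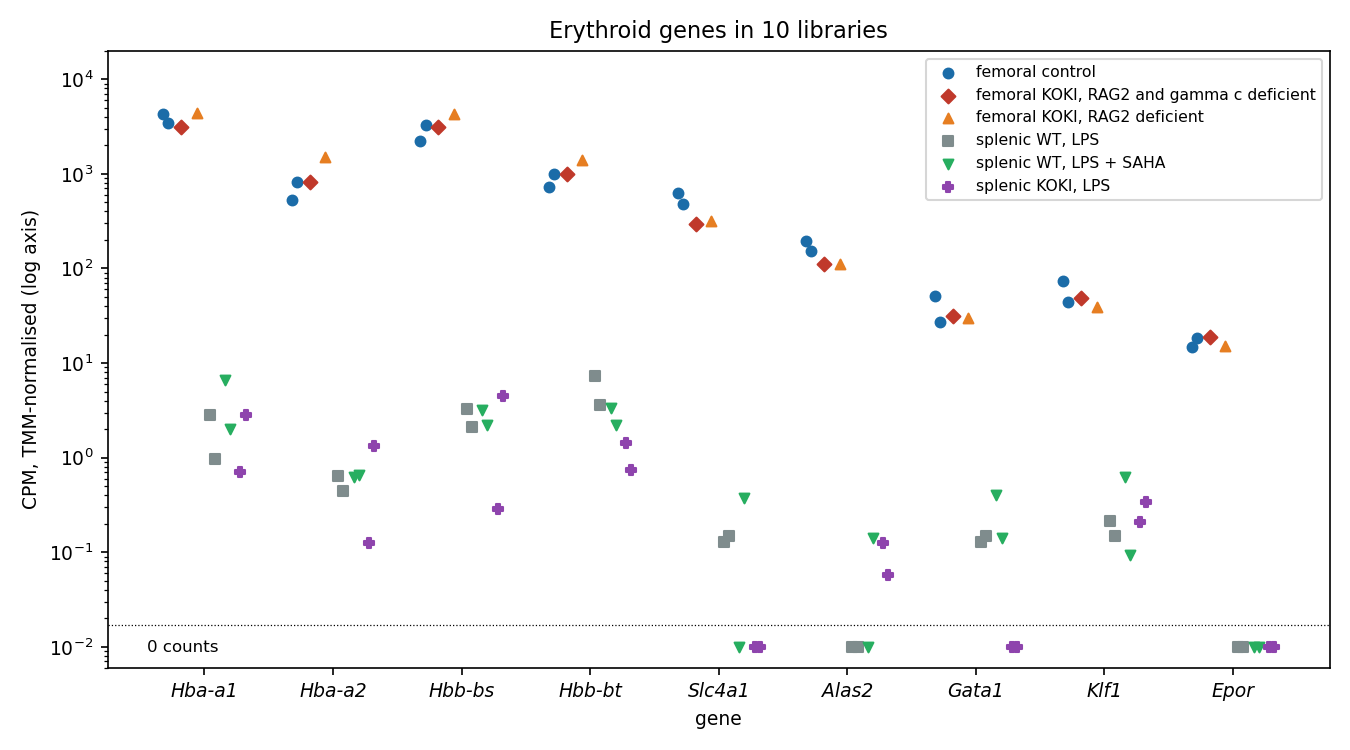
Level of each erythroid gene in each of the 10 libraries, as TMM-normalised CPM on a log axis; each symbol is 1 library and the lowest band holds libraries with 0 counts. The femoral symbols lie above all splenic symbols for every gene, and Epor has 0 counts in all 6 splenic cultures.

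The femoral and splenic preparations differed in tissue, culture, LPS and genetic background together, so the comparison between them describes the preparations as a whole. In the spleen the globins were detected at low counts: Hba-a1 had 17 to 114 counts per library, Hba-a2 had 3 to 23, Hbb-bs had 7 to 79 and Hbb-bt had 13 to 170. Slc4a1 had 0 to 8 counts, Alas2 0 to 3, Gata1 0 to 7 and Klf1 2 to 11. Epor had 0 counts in all 6 splenic libraries, against 356 to 625 counts in the femoral pools.

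As CPM of the pooled libraries, the femoral level was 4688 times the splenic level for Slc4a1, 1880.3 times for Hba-a1, 1737 times for Hba-a2 and 1520.0 times for Hbb-bs. The smallest of these ratios were those of Hbb-bt at 372, of Gata1 at 327 and of Klf1 at 248. For Epor the femoral level was at least 869.5-fold higher, taking 3 counts over the 6 splenic libraries as the limit that a count of 0 allows. Every gene was higher in the femur by edgeR's quasi-likelihood test, with Benjamini-Hochberg adjusted p from 1.4e-10 for Alas2 to 4.95e-08 for Epor. In this comparison 51.3% of 20204 genes passed the test and 26.3% did so upwards, and femoral and splenic values did not overlap upwards in 21% of genes. The 5 non-globin genes passed the filter on low counts only through their femoral counts, so the count of 9 of 9 carries no weight of its own.

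Other red cell genes differed from list to list. The 15 genes for the red cell membrane and its skeleton had a median log2 difference of 10.2, femur above spleen, beside 10.6 for the 9 genes. Of these 15, 10 passed the filter only through their femoral counts, and the 5 that also passed it in the splenic cultures were all called higher in the femur. Aqp1, a water channel, stood at 191 against 0.07 CPM. Of 12 erythroid transcription factors and cofactors, 4 passed only through the femur, and of the other 8, 4 were called higher. Over the 12 the median was 2.29, with Nfe2 at 102 against 0.05 CPM and Tal1 at 60.8 against 0.09 CPM. Lmo2, at 139 and 126 CPM, and Ldb1, at 72.2 and 66.4 CPM, were close in both preparations, and Bcl11a, a repressor of fetal globin genes that B cells also make, was lower in the femur at 85.7 against 157 CPM. All 7 heme synthesis genes were higher with a median of 1.55, and these serve every cell type: Fech, which inserts iron into heme, stood at 123 against 12.2 CPM. Of 7 iron and heme transport genes 6 were higher with a median of 1.31, and Tfrc was even at 466 and 454 CPM. Erythropoietin signalling was split, with 5 of 11 higher, 3 lower and a median of 0.64. Of these 11, 2 passed only through the femur, and of the other 9, 3 were called higher. Late erythroid genes had a median of 4.07 over 13 genes, 5 of which passed only through the femur. Car1, a red cell carbonic anhydrase, had a femoral mean of 247 CPM and 0 counts in every splenic library.

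The comparison of femoral KOKI with femoral control asked whether the erythroid genes followed the genotype. None of the 9 genes passed edgeR's test, and 5 of 16624 genes tested (0.0301%) did so, all of them higher in KOKI. Both beta globins and Hba-a2 had higher means in KOKI, Slc4a1, Alas2, Gata1 and Klf1 had lower means, and Hba-a1 and Epor had log2 fold changes of -0.03 and 0.04. The median log2 fold change was -0.03 over the 9 genes and -0.02 over all genes tested. Both KOKI pools lay beyond both control pools for 3 of the 9 genes, 2 downwards and 1 upwards. Across all genes tested 24.6% did not overlap downwards and 24.8% upwards, so this count was near the background.

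Slc4a1, the anion exchanger, measured 621 and 481 CPM in the control pools, 294 CPM in the KOKI pool deficient for RAG2 and gamma c, and 318 CPM in the KOKI pool deficient for RAG2. Both KOKI values lay below both controls. The log2 fold change was -0.85 (SE 0.25) with an edgeR adjusted p of 0.184. Slc4a1 passed under DESeq2 (adjusted p 0.00869, 688 genes called). Its log2 fold change ranged from -1.03 to -0.62 with 1 femoral pool left out. In a fit without 1 control pool, the 1 remaining control library is assumed to vary like the KOKI pools.

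Alas2, the heme enzyme, measured 195 and 152 CPM in the controls and 111 CPM in each KOKI pool. The KOKI values coincided with each other and lay below both controls. The log2 fold change was -0.65 (SE 0.21), with an edgeR adjusted p of 0.209. Slc4a1 and Alas2 were the 2 members with an unadjusted p below the threshold, against 16.2% of all genes tested. The log2 fold change of Alas2 ranged from -0.83 to -0.43 with 1 femoral pool left out.

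Gata1 measured 51.6 and 27 CPM in the controls and 31.1 and 29.8 CPM in the KOKI pools. Klf1 measured 73.1 and 44.0 CPM in the controls and 48.7 and 39.5 CPM in KOKI. In both genes control pool 1 stood alone at the top and control pool 2 lay among or close to the KOKI pools. The log2 fold changes were -0.37 (SE 0.30, edgeR adjusted p 0.576) for Gata1 and -0.41 (SE 0.26, edgeR adjusted p 0.479) for Klf1. Without control pool 1 they were 0.20 and 0.03, and without control pool 2 they were -0.77 and -0.74. The direction of these values therefore turned on 1 control library. Gata1 is also made by megakaryocytes, mast cells and eosinophils, whose markers were present in these pools, and their part in the values was not tested.

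Epor, the erythropoietin receptor, measured 14.8 and 18.5 CPM in the controls and 19.0 and 15.2 CPM in KOKI, with overlapping groups. Its log2 fold change was 0.04 (SE 0.22, edgeR adjusted p 0.952). It had the smallest spread of the 9 genes over the 4 femoral pools in relation to its mean.

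Among the globins, Hba-a2 measured 534 and 814 CPM in the controls and 827 and 1494 CPM in KOKI, the lower KOKI pool lying just above the higher control. Its log2 fold change was 0.79 (SE 0.36, edgeR adjusted p 0.325). Hba-a1 measured 4278 and 3452 CPM in the controls and 3143 and 4412 CPM in KOKI, and its log2 fold change was -0.03 (SE 0.36, edgeR adjusted p 0.978). Summed over the pair, the alpha globins measured 4812 and 4266 CPM in the controls and 3971 and 5906 CPM in KOKI, so the groups overlapped once the pair was not split.

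Hbb-bs measured 2203 and 3282 CPM in the controls and 3159 and 4252 CPM in KOKI. Hbb-bt measured 733 and 1004 CPM in the controls and 998 and 1399 CPM in KOKI. In both genes the KOKI pool deficient for RAG2 alone was highest and control pool 1 lowest, and the other 2 pools were close to each other. Summed over the pair, the beta globins measured 2936 and 4285 CPM in the controls and 4156 and 5651 CPM in KOKI, again with overlapping groups (log2 fold change 0.45, edgeR adjusted p 0.584). The single log2 fold changes were 0.44 (SE 0.36, edgeR adjusted p 0.581) and 0.47 (SE 0.31, edgeR adjusted p 0.482). With 1 femoral pool left out, the log2 fold change ranged from 0.32 to 1.18 for Hba-a2 and from 0.22 to 0.72 for Hbb-bt.

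**Figure D2:**
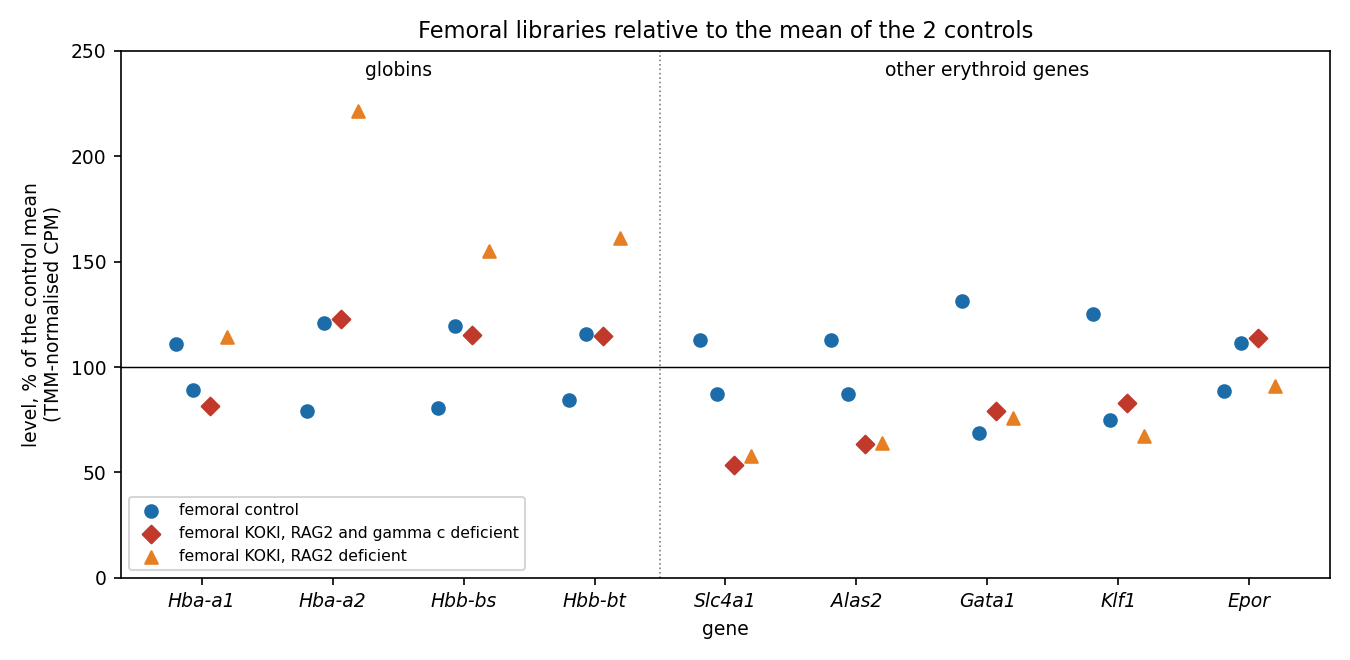
Level of each erythroid gene in the 4 femoral pools as a percentage of the mean of the 2 control pools, from TMM-normalised CPM; each symbol is 1 pool. Slc4a1 and Alas2 have both KOKI pools below both controls, Hba-a2 has both above, and the groups overlap for the other 6 genes.

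Only 1 KOKI pool shared the RAG2 and gamma c deficient background of the controls. Against the controls it had Slc4a1 at a log2 fold change of -0.91 (SE 0.39, edgeR adjusted p 0.585) and Alas2 at -0.65 (SE 0.29, edgeR adjusted p 0.593), with the spread borrowed from the groups of 2. None of the 9 genes and 0% of 20204 genes passed edgeR there, 8.22% of genes had an unadjusted p below the threshold, and DESeq2 called 25 genes. Between the 2 KOKI pools, which differ in gamma c, the largest log2 difference among the 9 genes was 0.85 (SE 0.60, edgeR adjusted p 1) for Hba-a2, higher in the pool deficient for RAG2 alone. Again 0% of genes passed edgeR, and 1.13% had an unadjusted p below the threshold. Alas2 differed least between these pools, by 0.004 on the log2 scale.

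The ratio between globin and non-globin counts within each library does not depend on how libraries are scaled. The 4 globins had 8.10 and 11.8 counts for each count of the other 5 genes in the control pools, 16.2 in the KOKI pool deficient for RAG2 and gamma c, and 22.5 in the KOKI pool deficient for RAG2. Both KOKI pools lay above both controls. The globin share of the 9 genes' counts was 89.0% (95% exact Clopper-Pearson interval 88.9 to 89.1%) and 92.2% (92.1 to 92.3%) in the controls, and 94.2% (94.1 to 94.3%) and 95.7% (95.7 to 95.8%) in KOKI. These intervals cover counting error only, and the gap between the 2 controls was wider than that between the higher control and the lower KOKI pool.

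Within the non-globin counts, Alas2 kept the steadiest share. Slc4a1 took 65.0% and 66.6% of them in the controls and 58.4% and 62.0% in KOKI, and Alas2 took 20.4% and 21.0% in the controls and 22% and 21.6% in KOKI. Epor took 1.55% and 2.57% in the controls and 3.77% and 2.95% in KOKI. Klf1 took 7.65% and 6.09% in the controls and 9.68% and 7.68% in KOKI, and Gata1 5.40% and 3.74% against 6.19% and 5.80%. For Alas2, Epor, Klf1 and Gata1 alike, both KOKI pools lay above both controls. Slc4a1 was thus the only 1 of the 5 whose share was lower in both KOKI pools. Shares of a total depend on each other, so a higher share of Alas2, Epor, Klf1 or Gata1 is not a higher level. The CPM of Epor overlapped between the groups, and the mean CPM of Alas2, Klf1 and Gata1 was lower in KOKI. Hba-a1 had 8.0 and 4.24 counts for each Hba-a2 count in the controls and 3.80 and 2.95 in KOKI, so control pool 1 stood apart from the other 3 pools. Hbb-bs had 3.00 to 3.27 counts for each Hbb-bt count in the 4 pools, the most even ratio of those computed.

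**Figure D3:**
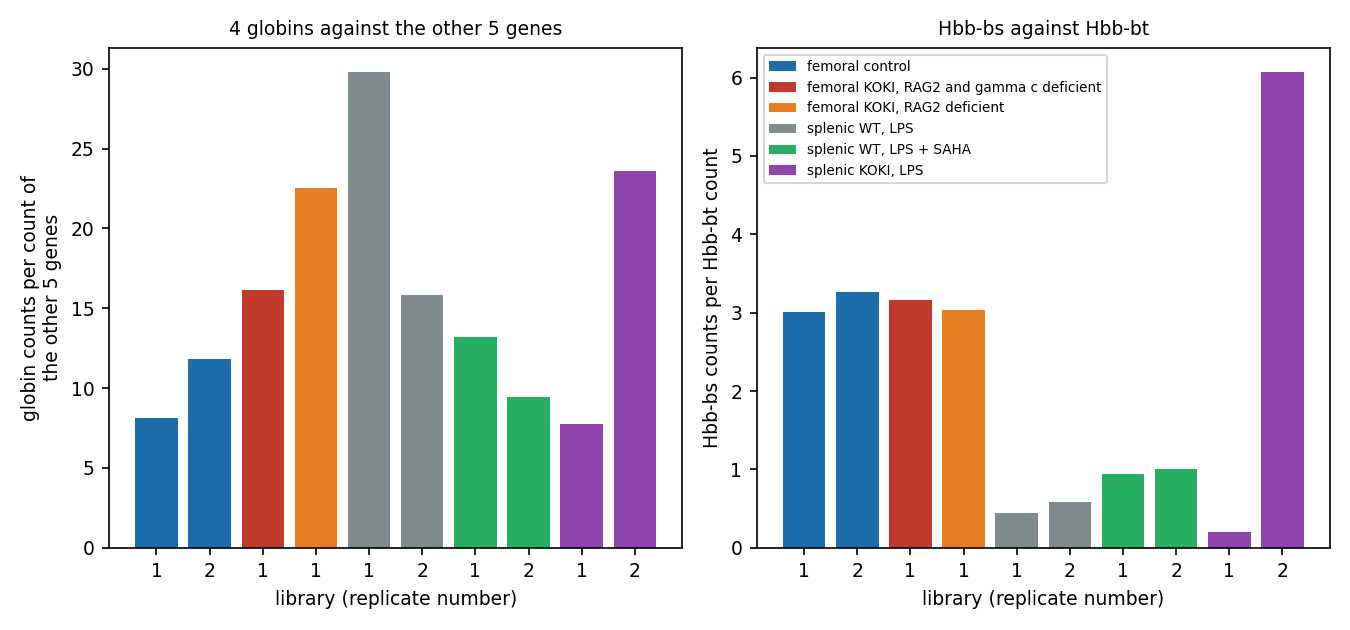
Left, counts of the 4 globins per count of the other 5 erythroid genes; right, Hbb-bs counts per Hbb-bt count; each bar is 1 library, numbered by replicate. The left ratio is 8.10 and 11.8 in the femoral controls and 16.2 and 22.5 in the femoral KOKI pools, and the right ratio is close to 3 in the femur and ranges from 0.2 to 6.08 in the spleen.

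The lists of further erythroid genes were read against the same background. No gene of any of these lists passed edgeR in femoral KOKI against control. The 15 genes of the red cell membrane and its skeleton had the most even values: 14 had negative log2 fold changes and both KOKI pools below both controls, 13 had an unadjusted p below the threshold (7.5% of all genes did so downwards), and the median was -0.71 against -0.02 over all genes. Epb41, which encodes protein 4.1 of the skeleton and was the list's most abundant gene, averaged 261 CPM in control and 161 CPM in KOKI. The genes named next in these lists were picked after their values were seen. Ank1, which anchors band 3 to spectrin, measured 183 and 148 CPM in the controls and 86.3 and 80.8 CPM in KOKI, and its log2 fold change was -0.98 (SE 0.20, edgeR adjusted p 0.115). Icam4, an adhesion protein, was the exception, with 4.53 and 4.74 CPM in the controls and 6.23 and 5.84 CPM in KOKI.

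DESeq2 called 6 of the 15 membrane genes lower, where it called 1.4% of all genes lower. The count was also 6 under edgeR without the filter on low counts (0.8% of all genes) and with the replicate number as a block (1.74%). Under edgeR 7 were lower without control pool 1 (5.79% of all genes), 13 without control pool 2 (9.57%) and none when either KOKI pool was left out, and 14 had negative values in each of these 7 fits. The list's median was -0.45 without control pool 1 and -0.94 without control pool 2. The fits with other scalings, with all 10 libraries or with summed globin pairs called none of the 15, and again 14 were negative. Plain library totals lowered the median of all genes from -0.02 to -0.18, and values of the lists are to be read against that shift.

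Heme synthesis genes had 7 of 7 negative log2 fold changes with a median of -0.38, beside -0.02 over all genes. Without control pool 1, 6 of 7 were negative with a median of -0.08, and without control pool 2 the median was -0.67. Fech measured 202 and 128 CPM in the controls and 82.6 and 78.9 CPM in KOKI, and Cpox, which acts earlier in the same pathway, 143 and 103 CPM against 73.2 and 74.3 CPM. The 12 transcription factors and cofactors were all negative with a median of -0.27, and 5 of the 12 had both KOKI pools below both controls, where 24.6% of all genes did. Lmo2, the most abundant by the rule, averaged 156 CPM in control and 121 CPM in KOKI, and Sox6, a repressor of embryonic globin genes, measured 84.0 and 68.8 CPM against 39.5 and 35.7 CPM. With 1 pool left out, 9 to 11 of these 12 were negative.

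The remaining lists were mixed. Among 7 iron and heme transport genes 4 were positive and 3 negative (all 7 negative with plain library totals), with Tfrc, the transferrin receptor, at 386 and 527 CPM in the controls and 436 and 513 CPM in KOKI. Of 13 late erythroid genes 11 were negative, Car2 averaging 725 CPM in control and 436 CPM in KOKI, whereas Cldn13 was positive with 29.4 and 54.8 CPM in the controls and 80.1 and 90.8 CPM in KOKI. Erythropoietin signalling had 8 of 11 positive values with a median of 0.73 (6 of 11 with plain library totals). The median was 0.34 without the KOKI pool deficient for RAG2 alone and 0.44 without control pool 1. Its targets of STAT5, which other cytokines also induce, included Pim1 at 71.0 and 60.9 CPM in the controls and 82.8 and 135 CPM in KOKI and Cish at 0.49 and 1.13 CPM against 1.82 and 2.05 CPM. Fam132b, the table's name for erythroferrone, measured 0.52 and 0.50 CPM in the controls and 1.47 and 2.68 CPM in KOKI, values too low for a firm comparison.

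Markers of macrophages and monocytes were mixed. Of 11 markers 5 had positive and 6 negative log2 fold changes. Those 6 had both KOKI pools below both controls, where 24.6% of all genes did, among them Spic at 14.3 and 12.8 CPM in the controls and 5.38 and 5.84 CPM in KOKI and C1qa at 26.9 and 26.9 CPM against 12.7 and 17.5 CPM, and 1 of the 11 had both above. The summed level of this list was 3857 and 4835 CPM in the controls and 5741 and 4402 CPM in KOKI, so it was highest in a KOKI pool. None of the 11 passed edgeR, and the part of these cells in the erythroid values was not tested.

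**Figure D4:**
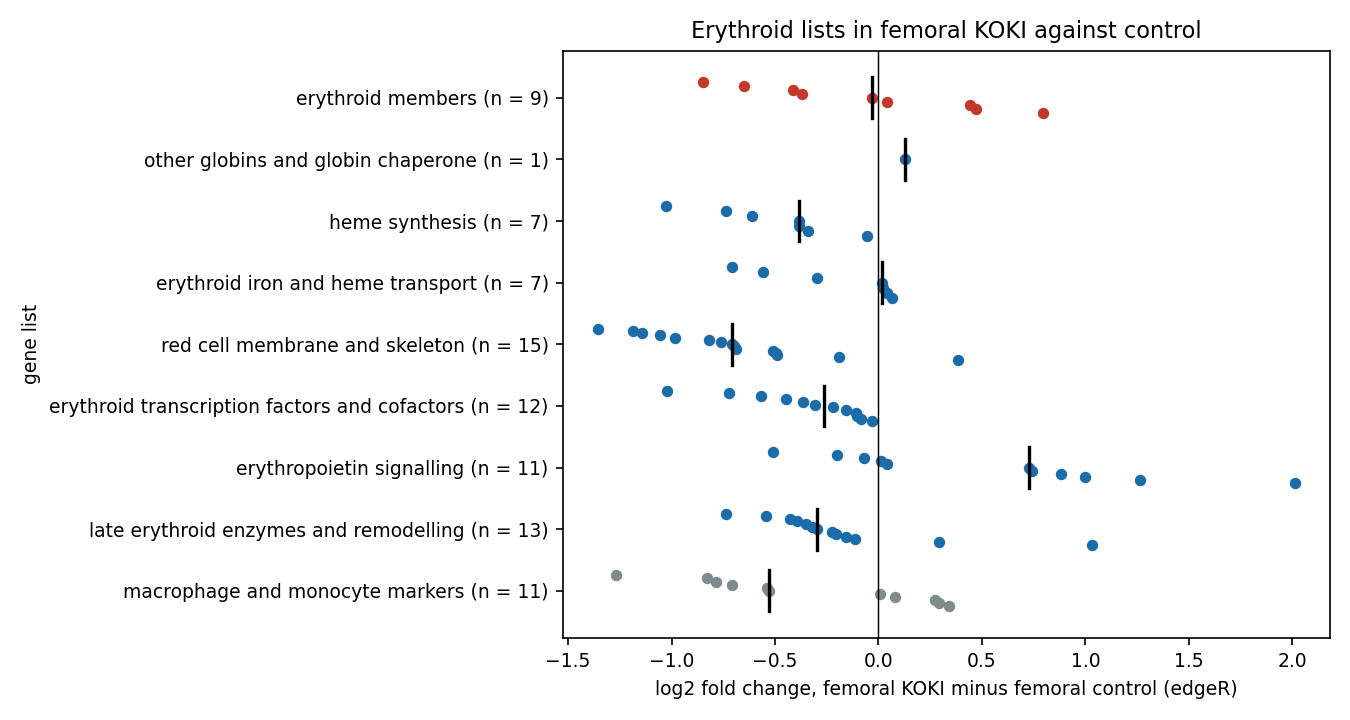
Log2 fold change of femoral KOKI minus femoral control for the genes of each erythroid list and for macrophage and monocyte markers; each point is 1 gene and the vertical tick is the list's median. Membrane and skeleton genes have a median of -0.71 with 14 of 15 points below 0, the 9 erythroid genes have a median of -0.03, and no point passed the adjusted test.

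In the splenic cultures only the 4 globins of the 9 genes passed the filter on low counts, and the other 5 were at or near the limit of detection. Adding SAHA to WT LPS cultures gave no call among the 4 globins, while edgeR called 712 of 15342 genes (4.64%). Hba-a1 measured 2.85 and 0.97 CPM with LPS and 6.54 and 2.01 CPM with SAHA, and Hbb-bt measured 7.24 and 3.57 CPM with LPS and 3.33 and 2.20 CPM with SAHA. For Hbb-bt both SAHA cultures lay below both LPS cultures, as for 30.2% of all genes, and the log2 fold change was -0.94 (SE 0.49, edgeR adjusted p 0.27). Hba-a2 and Hbb-bs had log2 fold changes of 0.28 and 0.04. The titles give the WT cultures with and without SAHA the same numbers, and Hba-a1 was higher with SAHA under both numbers. With the number as a block, edgeR called Hba-a1 higher (log2 1.17, adjusted p 0.035) among 3413 of 14961 genes (22.8%). Summed over the pair, beta globins measured 10.5 and 5.65 CPM with LPS and 6.48 and 4.39 CPM with SAHA, so the groups overlapped (log2 fold change -0.54, edgeR adjusted p 0.56), and the alpha sum had a log2 fold change of 1.03 (edgeR adjusted p 0.452).

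The splenic KOKI cultures had the lowest Hbb-bt levels, 1.44 and 0.74 CPM, from 35 and 13 counts. Against WT LPS the log2 fold change was -2.25 (SE 0.52) with an edgeR adjusted p of 0.0554, just above the threshold, where 626 of 15342 genes (4.08%) were called. Both KOKI values lay below both WT LPS values, as for 25.7% of all genes. DESeq2 called Hbb-bt lower with an adjusted p of 0.00227, and edgeR did so with plain library totals (adjusted p 0.0312), while without WT LPS culture 1 the log2 fold change was -1.68 (adjusted p 0.294). Against the WT cultures with SAHA the log2 fold change was -1.31 (SE 0.52, edgeR adjusted p 0.104), and 23.7% of genes were called in that comparison, none of them a globin. These 2 comparisons use the same KOKI cultures.

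Hbb-bs behaved differently between the 2 KOKI cultures, with 0.29 CPM in the first and 4.51 CPM in the second, the lowest and the highest of the 6 splenic values. The WT cultures measured 3.24 and 2.08 CPM with LPS and 3.15 and 2.20 CPM with SAHA. Its log2 fold change against WT LPS was -0.14 (SE 0.92, edgeR adjusted p 0.961). Hbb-bs took 30.9% and 36.8% of beta globin counts in WT LPS cultures, 48.7% and 50% with SAHA, and 16.7% (exact interval 6.97 to 31.4%) and 85.9% (77.0 to 92.3%) in KOKI, against 75.0 to 76.6% in the 4 femoral pools. Hba-a1 and Hba-a2 were likewise lower in the first KOKI culture, at 0.70 and 0.12 CPM, than in the second, at 2.86 and 1.31 CPM. Summed over the pair, the beta globins measured 1.73 and 5.25 CPM in KOKI, both below the 5.65 CPM of the lower WT LPS culture. The sum had a log2 fold change of -1.19 against WT LPS (SE 0.53, edgeR adjusted p 0.293) and of -0.66 against WT with SAHA (edgeR adjusted p 0.4), so the difference in Hbb-bt was smaller once the pair was not split.

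**Figure D5:**
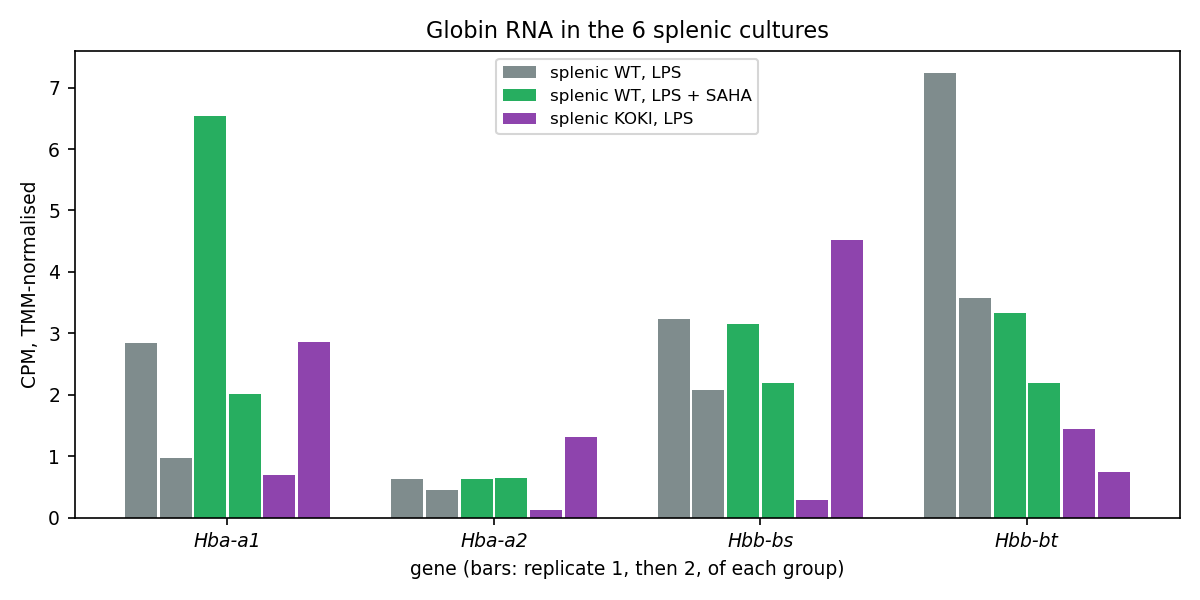
Level of the 4 globin genes in the 6 splenic cultures, as TMM-normalised CPM; each bar is 1 culture, replicate 1 before replicate 2 within each group. Hbb-bt is lowest in both KOKI cultures, at 1.44 and 0.74 CPM, while Hbb-bs in KOKI spans 0.29 to 4.51 CPM.

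The effect of KOKI on Hbb-bt was compared between the tissues in a fit of all 10 libraries. Femoral KOKI minus control exceeded splenic KOKI minus WT LPS by 2.70 on the log2 scale (edgeR adjusted p 0.0462), a test passed by 0.846% of 20204 genes and by no other globin. For the sum of both beta globins the difference was 1.65 (edgeR adjusted p 0.307), so the difference was not called once the pair was not split. The call was also lost when any of 5 libraries was left out, and its splenic side rests on 13 to 170 counts per library.

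Of 45 further genes of the erythroid lists tested in the spleen, edgeR called 2 with SAHA (both lower), 2 in KOKI against WT LPS (both higher) and 14 in KOKI against WT with SAHA (9 higher, 5 lower). These were 4.44%, 4.44% and 31.1% of the 45, beside 4.64%, 4.08% and 23.7% of all genes. Bnip3l, which directs the removal of mitochondria, rose in KOKI against WT LPS by 1.77 on the log2 scale (SE 0.18, edgeR adjusted p 0.00183), from a mean of 34.6 to 116 CPM, and was called in every alternative run. Lmo2, a cofactor in blood cell transcription, rose by 0.56 (SE 0.12, edgeR adjusted p 0.0484) from 112 to 162 CPM, a call lost when any of the 6 splenic libraries was left out (adjusted p 0.0747 to 0.232) and with other scalings or no filter on low counts. With SAHA, Tfrc fell by 1.02 (SE 0.17, edgeR adjusted p 0.0277) from 481 to 232 CPM. This call was lost with plain library totals and when WT LPS culture 1, either SAHA culture or either KOKI culture was left out. KOKI cultures against WT with SAHA were higher in Tfrc by 1.49 on the log2 scale (edgeR adjusted p 0.00139), and this call was kept in every alternative run. In the same comparison 5 of 9 erythropoietin signalling genes were called, 4 higher in KOKI and 1 lower. Among the higher were Socs3, an inhibitor of cytokine signalling, at a mean of 29.1 against 6.11 CPM and Pim1 at 271 against 126 CPM. The lower gene was Stat5a, at a mean of 29.1 against 40.8 CPM (edgeR adjusted p 0.0330). Both called genes of the red cell membrane list were lower in KOKI at very low levels: Ermap, a red cell surface protein, had 0 CPM in both KOKI cultures and a mean of 0.77 CPM with SAHA (edgeR adjusted p 0.0194), and Ank1 had means of 0.07 and 1.13 CPM (edgeR adjusted p 0.0336). The call of Ermap was lost when any of the 6 splenic libraries was left out, and that of Ank1 when any but WT LPS culture 1 was.

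Among the 5 genes outside the group whose profile over the 10 libraries lay nearest to the mean profile of the 9 genes were C3, Hp, Prss34 and Thbs1. Nearness was the Euclidean distance between log2 CPM profiles, each centred on its own mean, and was 1.49 to 1.64 for these 4 genes and 2.41 to 3.91 for the 9 genes themselves. C3, a complement protein, measured 515 and 380.3 CPM in the control pools, 322 and 262 CPM in the KOKI pools and 0.33 to 1.49 CPM in the splenic cultures. All 4 had far higher levels in the femur than in the spleen, as were the neutrophil, macrophage and granulocyte lists, so this likeness mostly describes the contrast between the 2 preparations.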

How the data were processed

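RNA-seq libraries from 4 femoral and 6 splenic mouse samples were made with a stranded total RNA kit, per the labels' protocols. The authors deposited raw counts per gene. STAR 2.4.0a, featureCounts of Subread 1.4.6-p1 and build mm10 (GRCm38) are named per the submitters' processing notes. The sources used here give neither the strand setting nor the handling of reads with several matches. The table also had 100 spike-in and phiX entries, with 1 to 17 counts per library, which were left out.

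Counts were fitted with edgeR 4.0.16 in R 4.3.3 (TMM scaling, filterByExpr with min.count 10 and min.total.count 15, quasi-likelihood F test, Benjamini-Hochberg adjustment over all genes tested, threshold 0.05). The femoral KOKI comparison used the 4 femoral pools, splenic comparisons the 6 cultures, and the others all 10 libraries. RPKM used the exon lengths of the deposited table. Alternatives were DESeq2 1.42.0, other scalings, no filter, a replicate block, each library left out and, added after the data were seen, near-identical globin pairs summed. On simulated data for the femoral comparison, 83% of 100 genes changed by a fold of 2 were recovered among 16624. The simulation gave all genes the same fixed spread and changed only genes with higher counts. It did not model the differences between the real pools, so this rate cannot be read as that of the real comparison. Replicates differed by a chi-square per degree of freedom of 92.6 to 161, and the 2 femoral KOKI pools by 44.1. No library was thus a copy of the one it was set against, and other pairs were not compared.

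The 9 genes and the gene lists were chosen with earlier results of these data known. From each list, up to 3 genes with the largest fold change past the threshold were to be named per comparison, or otherwise the most abundant one. Ahsp and Flvcr1 were not analysed here, and some genes that this rule names are not reported here. Motifs came from RefSeq promoter windows. Figures were drawn with matplotlib 3.10.9.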

Additional observations from a re-analysis of the deposited data

Results flagged for a closer look

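The effect of KOKI on Hbb-bt differed between femur and spleen by 2.70 on the log2 scale (edgeR adjusted p 0.0462). Femoral KOKI pools measured 998 and 1399 CPM against 733 and 1004 CPM in control, and splenic KOKI cultures measured 1.44 and 0.74 CPM against 7.24 and 3.57 CPM with LPS. With 1 library left out the difference ranged from 2.15 to 3.29, and its adjusted p rose to 0.106 without femoral control pool 1, 0.115 without the KOKI pool deficient for RAG2, 0.162 without WT LPS culture 1, 0.109 without KOKI culture 1 and 0.235 without KOKI culture 2. For the sum of both beta globins, between which reads cannot be firmly assigned, the difference was 1.65 (adjusted p 0.307). Tissue, culture and genetic background differ between these contrasts and cannot be told apart.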

How the results depend on the processing

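Femur against spleen kept its direction and its call for all 9 genes in every alternative run. In femoral KOKI against control, edgeR called 5 genes and none of the 9, and the alternatives gave 688 genes and 1 of the 9 with DESeq2, 662 genes without the filter on low counts, and 0 genes with RLE size factors, plain library totals, library totals without the 4 globins (added after the data were seen) or a fit of all 10 libraries. With 1 femoral library left out the number ranged from 13 to 3456 genes and from 0 to 6 of the 9, the extremes for the 9 being 6 without control pool 2 and 0 without either KOKI pool. Signs turned for values close to 0 or set by control pool 1. Epor was -0.12 with plain totals and -0.12 with totals without globins, and ranged from -0.11 to 0.21 with 1 library left out. Over the same fits Hba-a1 ranged from -0.29 to 0.21, Gata1 from -0.77 to 0.20 and Klf1 from -0.74 to 0.031. On the matched background DESeq2 gave 25 genes, plain totals 1, no filter 368, and leaving out a library 0 to 37. Between the KOKI pools no filter gave 54 genes. For SAHA the counts were 1721 with DESeq2, 34 with plain totals, 1970 without the filter and 0 to 290 with a library left out. For splenic KOKI against WT LPS they were 1097 with DESeq2, 1254 without the filter and 270 to 708 with a library left out, and 1 of the 9, Hbb-bt, was called with DESeq2, plain totals or no filter, and 0 to 1 with a library left out (1 without either SAHA culture). Against WT with SAHA, no filter called 1 of the 9 (Hbb-bt), and leaving out a library gave 1703 to 3463 genes and 0 to 1 of the 9, Hbb-bs passing without KOKI culture 2 (-3.17, adjusted p 0.0306). The cause of these changes was not tested. The mean globin share of the 9 genes' counts moved from 92.8% to 98.1% in the femur and from 93.1% to 97.3% in the spleen when taken per kilobase, since the globin genes are short.

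Whether the replicate numbers pair the samples is not settled by the labels. The titles number the WT cultures with and without SAHA alike but do not say that a number marks 1 mouse. Deviations of same-numbered libraries correlated at 0.22 for WT LPS with SAHA, 0.06 for WT LPS with KOKI, 0.05 for SAHA with KOKI and 0.10 for the femoral pools, over 2 pairs each. With the replicate block edgeR called 869 genes in the femoral comparison and none of the 9, 3413 genes with SAHA and 1 of the 9 (Hba-a1, log2 1.17, adjusted p 0.035), and 1313 genes in splenic KOKI against WT LPS and 1 of the 9 (Hbb-bt, adjusted p 0.00742).

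Depth did not limit the femoral values, but every splenic value of the non-globin genes in the group rests on fewer than 12 counts.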
